A study of Mus musculus with 168 samples.

Results

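Peritoneal macrophages of mice that had received 14 treatments with a JAK inhibitor were compared with those of mice that had received 1 treatment, all collected 18 h after the last treatment. The question of the comparison is whether repeated dosing changes what a single dose does at the same hour. The arrays were picked by their labels, but the comparison was chosen with earlier results of these data known. Of the 168 arrays of the series, 8 enter it. They fall into 4 groups of 2 arrays, namely SB00513404 for 14 treatments, SB00526222 for 14 treatments, SB00513404 for 1 treatment and SB00526222 for 1 treatment. All mice were male C57BL/6 of 6 weeks, and all 8 arrays belong to the experiment with the title prefix J25. The cells, labelled MF, were sorted on a FACSAria as F4/80+ ICAM2+ cells of the peritoneal cavity, and total RNA was taken with TriZol and labelled with biotin. The compounds are known only by their codes, and the labels give no dose. The same experiment holds 6 other peritoneal macrophage arrays, which are 2 of 14 vehicle treatments at 18 h, 2 of 1 SB00513404 treatment at 3 h and 2 of 1 vehicle treatment at 3 h, the vehicle being 0.5% MC. None of the J25 arrays used here is of vehicle 18 h after 1 treatment, so the 14 and 1 treatment arrays cannot each be set against a vehicle of their own schedule.

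Janus kinases (JAKs) sit on the receptors of interferons and many interleukins and, when the receptor is engaged, phosphorylate STAT transcription factors, which move to the nucleus and switch on target genes. Among these targets are the SOCS proteins, which feed back on the receptors. The main resident macrophage of the mouse peritoneal cavity, the large peritoneal macrophage, is marked by high F4/80 (the product of Adgre1), ICAM2 and the phosphatidylserine receptor TIMD4, depends on the transcription factor GATA6, and can renew itself by division in the adult animal.

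Values are log2 of the deposited intensity, and a difference is the mean of the 14 treatment arrays minus that of the 1 treatment arrays with compound as a covariate. Where 4 values are given for a number of treatments, they are those of SB00513404 replicates 1 and 2 and then of SB00526222 replicates 1 and 2. Replicates are single arrays whose titles number separate animals, and their numbers carry no pairing between groups. Array medians of the 8 arrays lay between 6.94 and 7.07, correlations between arrays between 0.9702 and 0.9957, and 0 of 91 pairs of J25 arrays were identical. The macrophage markers were bright, with a list mean of 11.30 to 11.47 after 14 treatments and 10.90 to 11.27 after 1 treatment. Markers of other cells were low in the same arrays, with list means of 6.25 to 6.33 and 6.32 to 6.5 for B cells, 5.76 to 5.99 and 5.81 to 6.05 for T cells, and 4.87 to 5.04 and 5.04 to 5.28 for NK cells. Above the array median on any of the 8 arrays were 2 of 11 B cell, 2 of 10 T cell and 0 of 8 NK cell markers, against all 9 macrophage markers. The means of the B cell, NK cell and dendritic cell lists were on average lower after 14 treatments (6.29, 4.98 and 6.69) than after 1 (6.42, 5.17 and 6.85). Those of the T cell, neutrophil, eosinophil, mast cell, erythroid, mesothelial and platelet lists were lower too, so the fall is not particular to 1 cell type. Without a filter on dim genes, the median difference over 19752 genes was -0.045. The part of these lists in the results was not tested. In bulk RNA, fewer cells of a type and less RNA per cell cannot be told apart.

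A shared shift of the arrays has to be stated before the results. In the 25 peritoneal macrophage arrays outside the comparison, the first principal component within experiments held 38% of the variance, and the 100 genes at each of its ends were used to give every array a score. The score is the mean of the high end minus the mean of the low end, relative to the median of those 25 arrays. The arrays of 14 treatments scored -0.63, 0.10, 0.22 and -0.08. The arrays of 1 treatment scored -2.07, -1.43, -1.86 and -0.56. The vehicle arrays of 14 treatments scored 0.00 and -1.92. Scores at or below -1 were thus found in 0 of 4 arrays of 14 treatments, in 3 of 4 arrays of 1 treatment and in 1 of 2 vehicle arrays. Outside J25 they were found in 3 of 10 arrays of the experiment J23 and in 1 of 9 arrays of J12, so that 8 of 33 arrays lie there, with no array between -1.31 and -0.68. The mean score was -0.10 ± 0.37 after 14 treatments and -1.48 ± 0.67 after 1 treatment (SD, n = 4 each), a difference of 1.38 with an exact two-sided permutation p of 0.0571 over 70 regroupings, where 0.0286 is the smallest p possible.

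**Figure D1:**
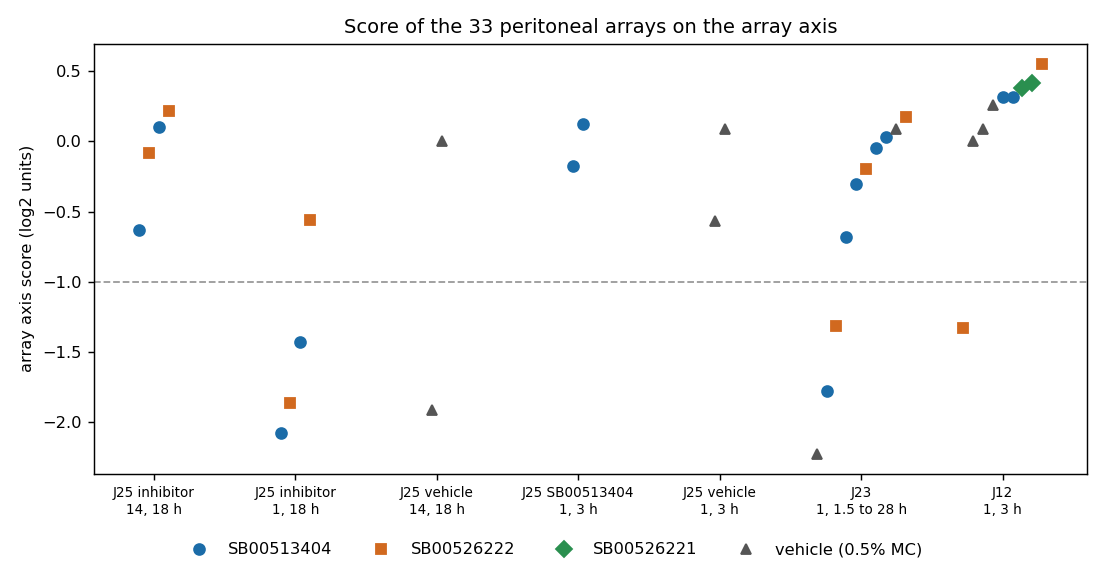
Array score (difference of mean log2 intensity between the 2 sets of 100 genes, relative to the median of 25 arrays) for the 33 peritoneal macrophage arrays by group, 1 point for each array, with a dashed line at -1. The 4 arrays of 14 treatments lie between -0.63 and 0.22, and 3 of the 4 arrays of 1 treatment and 1 vehicle array of 14 treatments lie at or below -1.

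Of 10870 genes tested, 1953 (18.0%) passed an adjusted p of 0.05 between 14 and 1 treatments, 1559 of them higher (14.3%) and 394 lower (3.62%) after 14 treatments. Most of these differences were small: 46 of the 1953 exceeded 1 on the log2 scale, 31 upward and 15 downward, and the median difference over all genes tested was 0.07. The 12 largest rises included the complement genes C1qa and C4a, the phosphatase gene Dusp1 and the ligand gene Wnt2, and the 12 largest falls included Ly6a2 and the mitosis genes Sgo2a and Ube2c. The count rests on single arrays: it was 3 without SB00513404 replicate 1 of 1 treatment, 5 without SB00526222 replicate 1 of 1 treatment, 2 without SB00526222 replicate 1 of 14 treatments and 1 in a fit of all 14 J25 arrays, while it reached 2786 without SB00526222 replicate 2 of 1 treatment. Of the 73 genes described as passing, only Ly6a2 and S1pr5 passed with each of the 8 arrays left out in turn. The calls also move with the array score. Across the 10870 genes, the difference between 14 and 1 treatments had a Pearson correlation of 0.84 and a Spearman correlation of 0.85 with the slope of the same gene on the score in the 25 other arrays (a description over genes, which are not independent). The sign of that slope was shared by 98.9% of the called genes (1932) and by 85.1% of all genes tested. With the score as a covariate 0 genes passed, with 519 (4.77%) under an unadjusted p of 0.05 against 4085 without it, 228 of the 519 higher (2.10%) and 291 lower (2.68%), and 1 gene, Ly6a2, passed without the 3 low arrays of 1 treatment. In the 8 arrays the score and the number of treatments had a correlation of 0.83, and the covariate raised the median standard error to 0.154, 1.62 times the 0.0953 without it. With that correlation, the score and the number of treatments can be told apart only in part in these 8 arrays. Of the 200 genes that make the score, 149 were among the called genes, including C1qa, Cfp, Aldh2 and Baiap2l1. The values of such a gene enter the score that it is adjusted by, so its smaller difference in that fit is in part built in.

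**Figure D2:**
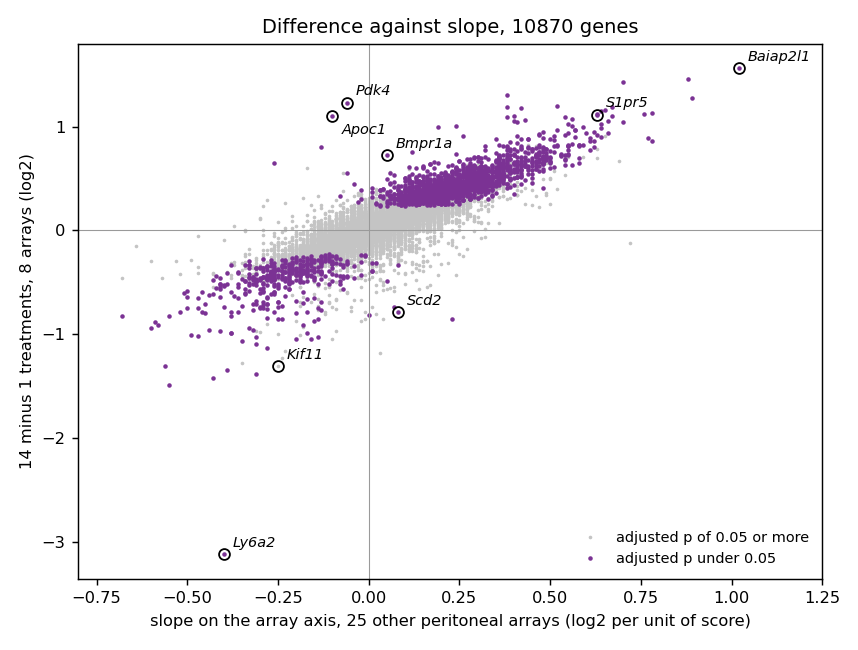
Difference of log2 intensity, 14 minus 1 treatments, in the 8 compared arrays (vertical axis) against the slope of the same gene on the array score in the 25 other peritoneal arrays (horizontal axis) for the 10870 genes tested, with genes at an adjusted p under 0.05 in purple. Genes with a positive slope lie mostly above 0, with a Pearson correlation of 0.84 over genes, and Ly6a2 lies far below the rest at -3.12.

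Ly6a2 was the gene with the largest difference. It is a member of the Ly6 family of small surface proteins anchored in the membrane by a lipid, in the Ly6 gene cluster on chromosome 15. Its probe set 10429580 read 5.39, 5.31, 5.38 and 5.53 after 14 treatments, against 9.2, 7.6, 8.6 and 8.6 after 1 treatment, and 7.05 and 9.14 after 14 vehicle treatments. The 4 arrays of 14 treatments are low and close together, and all other J25 arrays lie above them. The difference was -3.12 ± 0.26 (SE), 8.7-fold lower after 14 treatments, with an adjusted p of 0.00215 in limma. With any 1 of the 8 arrays left out, the adjusted p lay between 2.79e-05 and 0.022. In the 25 peritoneal arrays outside the comparison, Ly6a2 ranged from 5.51 to 10.38 with a median of 7.05, and 24 of the 25 lay above all 4 arrays of 14 treatments. The lowest, 5.51, was a J12 array 3 h after 1 treatment with SB00526221. The J23 arrays 18 h after 1 treatment read 7.42 with SB00513404 and 7.46 and 7.54 with SB00526222. These lie above the J25 arrays of 14 treatments and below all 4 J25 arrays of 1 treatment. With the score as a covariate the difference was -2.59 (unadjusted p = 0.000455). The 14 treatment values lie below the array medians, so the fold rests on dim values. Ly6a had no probe set with a single symbol, so whether this probe set also binds Ly6a RNA was not checked.

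The 250 bases before the start of Ly6a2 are shown because this gene carries the largest change (RefSeq, GRCm38.p6, chr15:75135129-75135378, minus strand, 5′ to 3′). They were searched on both strands for the STAT dimer site TTCNNNGAA, the core of the interferon response element, the cell cycle element TTTGAA, the CCAAT box and the E2F site TTTCGCG, and hold a match of none of them, which says only that these letters are not in this window.
Ly6a2: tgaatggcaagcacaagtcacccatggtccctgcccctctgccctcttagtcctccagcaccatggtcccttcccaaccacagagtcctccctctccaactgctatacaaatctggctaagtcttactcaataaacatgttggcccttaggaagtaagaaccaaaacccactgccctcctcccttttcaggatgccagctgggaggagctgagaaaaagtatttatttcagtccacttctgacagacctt
Among 32851 promoters of this length, 7.0% hold the STAT dimer site, 3.0% the interferon response core, 16.0% the cell cycle element, 33.8% the CCAAT box and 0.7% the E2F site.

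S1pr5 had the smallest adjusted p and lies outside the rule for named genes, so it was chosen after its values were seen. It encodes a receptor for sphingosine 1-phosphate, a lipid that guides cells out of tissues. It read 9.71, 9.67, 10.04 and 9.91 after 14 treatments, 8.38, 8.60, 8.92 and 8.96 after 1 treatment, and 9.91 and 8.33 after 14 vehicle treatments. The 14 and 1 treatment arrays do not overlap, while the 2 vehicle arrays lie 1 with each. The difference was 1.12 ± 0.08 (SE), a 2.2-fold rise with an adjusted p of 0.00128, and between 0.00092 and 0.0155 with 1 array left out. S1pr5 is itself 1 of the genes of the array score, with a slope of 0.63. With the score as a covariate in the 8 arrays the difference was 1.00 (unadjusted p = 7e-05 in limma). It was smaller, at 0.36 (unadjusted p = 0.0583 in limma), in the fit of all 33 peritoneal arrays with an experiment term and the score. In J23, 18 h after 1 treatment, S1pr5 read 8.82 on the array of SB00513404 and 9.70 and 9.44 on those of SB00526222.

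**Figure D3:**
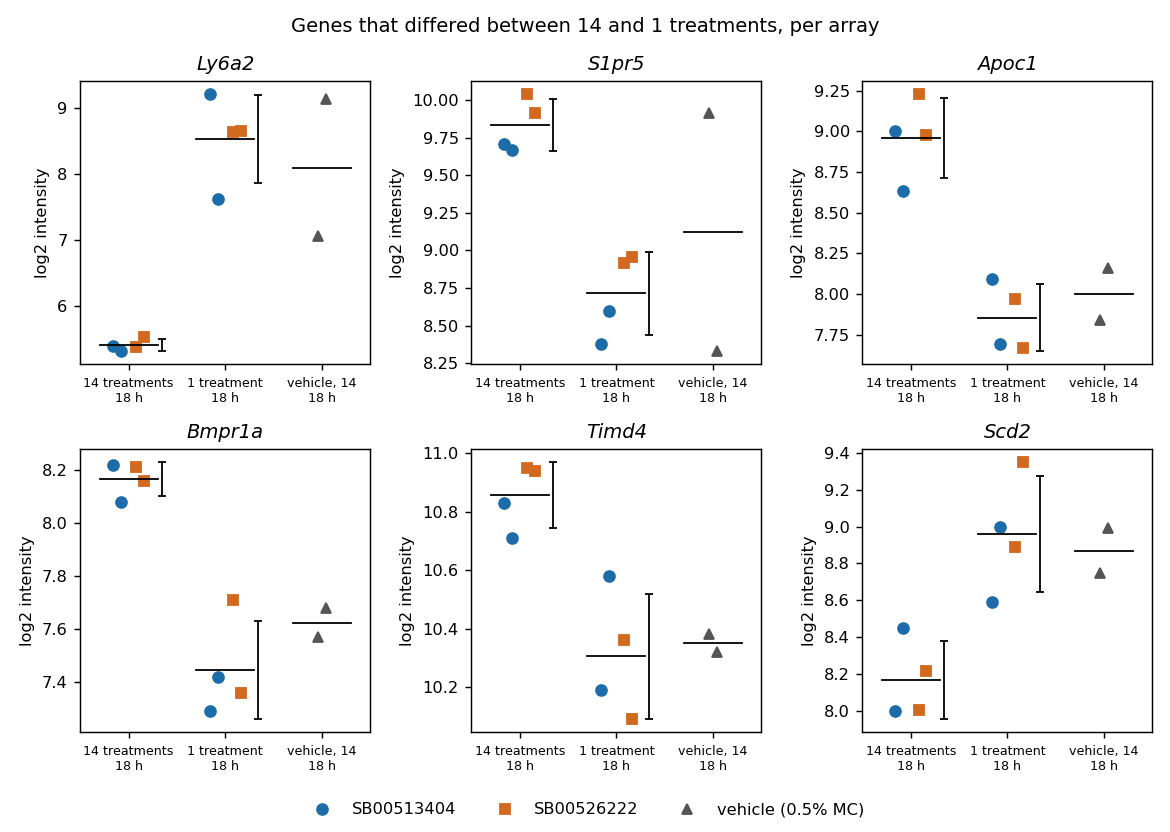
Log2 intensity of Ly6a2, S1pr5, Apoc1, Bmpr1a, Timd4 and Scd2 for 14 inhibitor treatments, 1 inhibitor treatment and 14 vehicle treatments, all at 18 h. Circles are SB00513404, squares SB00526222 and triangles vehicle, with the line at the mean and the bar at the SD of the 4 inhibitor arrays. For each of the 6 genes the 14 and 1 treatment arrays do not overlap, as held for 15.9% of all genes tested. For Ly6a2 the mean is 5.40 after 14 treatments and 8.53 after 1 treatment.

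A few genes rose whose level has little slope on the array score. Apoc1, an apolipoprotein of the Apoe gene cluster, read 9.0, 8.6, 9.2 and 9.0 after 14 treatments, 8.1, 7.7, 8.0 and 7.7 after 1 treatment, and 7.8 and 8.2 after 14 vehicle treatments. All 4 arrays of 14 treatments lie above the 4 arrays of 1 treatment and the 2 vehicle arrays. The rise was 1.10 ± 0.14 (SE), 2.2-fold, with an adjusted p of 0.0207, which reached 0.0918 with 1 array left out. Its slope on the score was -0.10, and with the score as a covariate the difference was 1.56 (unadjusted p = 3.25e-05). In J23, 18 h after 1 treatment, Apoc1 read 10.02, 9.26 and 9.0, as high as after 14 treatments in J25.

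Bmpr1a, a receptor of bone morphogenetic proteins, read 8.22, 8.08, 8.21 and 8.16 after 14 treatments, 7.29, 7.42, 7.71 and 7.36 after 1 treatment, and 7.57 and 7.68 after 14 vehicle treatments. Its arrays of 14 treatments lie above both other sets, and the rise was 0.72 ± 0.10 (SE), 1.65-fold, with an adjusted p of 0.0207. In J23, 18 h after 1 treatment, Bmpr1a read 8.14, 7.90 and 7.80. Bmpr1a, Gbgt1, Colec12, Cd209b and Mexis were chosen after their values were seen. They were picked because their arrays did not overlap, as held for 1723 of 10870 genes (15.9%). Their unadjusted p with the score as a covariate was also under 0.05, and 156 of the 10870 genes met both criteria. Gbgt1, a glycosyltransferase of the Forssman antigen, rose by 1.00 (adjusted p = 0.00871), and Colec12 and Cd209b, both lectin receptors that bind sugars on microbes, rose by 0.76 and 1.00 (adjusted p = 0.026 and 0.0207). Mexis, a noncoding RNA that assists Abca1 expression in mouse macrophages, fell by 0.66 (adjusted p = 0.0207).

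Of 28 tested genes of large peritoneal macrophage identity, 8 rose (28.6%, against 14.3% of all genes) and 0 fell, with a median difference of 0.26 against 0.07 over all genes. With the score as a covariate the list's median was 0.02, against 0.01 over all genes. Timd4 read 10.83, 10.71, 10.95 and 10.94 after 14 treatments, 10.19, 10.58, 10.36 and 10.09 after 1 treatment, and 10.38 and 10.32 after 14 vehicle treatments. The 14 treatment arrays are the highest of the 3 sets, and the rise was 0.55 ± 0.12 (SE), 1.46-fold, with an adjusted p of 0.0287 and a slope on the score of -0.06. In J23, 18 h after 1 treatment, Timd4 read 11.17, 10.75 and 10.63, about as high as after 14 treatments in J25. Wnt2, a secreted WNT ligand, rose by 1.20 (adjusted p = 0.0207), Ltbp1, which holds latent TGF-beta in the matrix, by 0.52 (adjusted p = 0.0287) and Icam2 by 0.43 (adjusted p = 0.039; -0.04 with the score as a covariate). Adgre1 averaged 12.79 ± 0.08 after 14 treatments and 12.54 ± 0.08 after 1 treatment (SD, n = 4 each; adjusted p = 0.0546). Gata6 averaged 11.31 ± 0.05 and 11.06 ± 0.36, which did not pass (adjusted p = 0.239). The slopes of Wnt2, Ltbp1 and Icam2 on the score were 0.52, 0.25 and 0.35, all above that of Timd4. In the retinoic acid and GATA6 pathway list 4 of 13 genes rose (30.8%, against 14.3% of all genes) and 0 fell, with a median of 0.28 that was -0.03 with the score as a covariate. Of 14 genes of small peritoneal macrophages and monocytes 0 rose and 2 fell (14.3%, against 3.62% of all genes). Their median of -0.19 also changed sign, to 0.16 with the score as a covariate and to 0.22 without the 3 low arrays of 1 treatment. The mean of these small macrophage and monocyte genes was 8.90, 8.11, 9.18 and 8.91 after 14 treatments, 8.7, 8.94, 8.93 and 8.92 after 1 treatment, and 8.96 and 9.06 after 14 vehicle treatments, with the lowest value on SB00513404 replicate 2 of 14 treatments.

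Cell cycle genes had mostly lower values after 14 treatments, but the spread between arrays was wide and few passed. Of 47 tested mitosis genes, 46 had a negative difference, with a median of -0.55 against 0.07 over all genes, but only 2 (4.26%) passed, both lower, a share near the 3.62% of all genes that fell. Of 39 genes of DNA replication and S phase, 33 were negative with a median of -0.24, and 5 passed, all lower (12.8%, against 3.62% of all genes). Of 9 histone genes 8 were negative with a median of -0.58, and 2 passed, both lower (22.2%). The mean of the mitosis genes was 7.16, 8.7, 6.77 and 7.42 after 14 treatments, 7.89, 7.91, 8.37 and 8.43 after 1 treatment, and 8.15 and 8.78 after 14 vehicle treatments. The 3 lowest of these 10 arrays are all of 14 treatments. Outside J25, the J12 arrays 3 h after 1 inhibitor treatment ranged from 7.39 to 8.36. The J23 arrays 18 h after 1 inhibitor treatment ranged from 8.2 to 8.53. A mean as low as 7.42 was thus also seen after 1 treatment, at another hour and in another experiment. Within J25, SB00513404 replicate 2 of 14 treatments lies above all 4 arrays of 1 treatment. Without that array 42 of the 47 mitosis genes passed, with a median of -0.97, in a fit that called 589 of 10870 genes, 277 of them lower. With any other array left out 0 or 1 passed, with medians of -0.70 to -0.30. Of those other fits, 3 called only 2, 3 and 5 of all genes, so a count of 0 there says little about the mitosis genes. SB00513404 replicate 2 of 14 treatments also has the lowest mean of the small macrophage and monocyte genes and the lowest H2-Aa, at 9.03. Whether this bears on the mitosis genes was not tested.

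Kif11, the motor protein that pushes spindle poles apart, read 7.88, 9.80, 7.12 and 8.14 after 14 treatments, 9.36, 9.32, 9.92 and 9.58 after 1 treatment, and 9.08 and 10.36 after 14 vehicle treatments. The high SB00513404 array of 14 treatments again lies among those of 1 treatment, and the difference of -1.31 ± 0.44 (SE) did not pass (adjusted p = 0.0642). Mki67, the proliferation antigen Ki-67, averaged 8.83 ± 1.49 after 14 treatments and 10.02 ± 0.19 after 1 treatment (SD, n = 4 each; adjusted p = 0.15). Bub1, a spindle checkpoint kinase, averaged 7.53 ± 1.03 and 8.76 ± 0.41 (adjusted p = 0.0715). The spread after 14 treatments exceeded that after 1 treatment for all 3 genes.

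The 2 mitosis genes that passed were Sgo2a, which protects the cohesion of centromeres and fell by 1.34 (adjusted p = 0.0393), and Ube2c, a ubiquitin-conjugating enzyme of the anaphase-promoting complex, which fell by 1.10 (adjusted p = 0.0491). Outside that list, Prr11 fell by 1.49 (adjusted p = 0.0386), Mad2l1, a spindle checkpoint protein, by 1.05 (adjusted p = 0.0287) and Dtl, a factor that marks replication proteins for degradation, by 1.03 (adjusted p = 0.0371). Among S phase genes Ccne2, a cyclin of the start of S phase, fell by 0.97 (adjusted p = 0.0287) and Tyms, thymidylate synthase, by 0.87 (adjusted p = 0.0443). H2bc14, a replication-dependent histone of a family of near-identical copies, fell by 1.42 (adjusted p = 0.026). The median slope of the mitosis list on the array score was 0.02. With the score as a covariate its median difference was -1.26 and that of the S phase list -0.84. That fit called 0 of all genes. At an unadjusted p under 0.05 in it, 10 of the 47 mitosis and 24 of the 39 S phase genes were lower and 0 higher. Of all genes 2.68% were lower there. Genes of a list are not independent, so these counts are a description.

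The 250 bases before the starts of Kif11 (chr19:37376132-37376381, plus strand) and Ube2c (chr2:164769679-164769928, plus strand) are shown as examples of mitosis genes that hold both the cell cycle element and the CCAAT box, and were chosen because they do (RefSeq, GRCm38.p6, 5′ to 3′). Capitals mark TTTGAA and CCAAT on either strand, so TTCAAA and ATTGG are matches of the opposite strand, and a pair of CCAAT matches overlaps in Ube2c.
Kif11: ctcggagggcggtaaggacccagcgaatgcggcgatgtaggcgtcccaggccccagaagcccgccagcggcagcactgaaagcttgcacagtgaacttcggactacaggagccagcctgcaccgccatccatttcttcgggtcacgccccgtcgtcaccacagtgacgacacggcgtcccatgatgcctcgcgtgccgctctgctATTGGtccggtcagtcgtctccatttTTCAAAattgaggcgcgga
Ube2c: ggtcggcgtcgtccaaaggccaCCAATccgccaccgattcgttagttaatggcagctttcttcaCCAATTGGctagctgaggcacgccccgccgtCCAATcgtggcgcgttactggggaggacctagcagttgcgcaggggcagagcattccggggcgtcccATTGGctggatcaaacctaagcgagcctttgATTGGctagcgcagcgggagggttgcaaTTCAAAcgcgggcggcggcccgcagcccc
The cell cycle element begins 19 bases before the start in Kif11 and 29 in Ube2c. Of the 39 mitosis genes with a promoter in the table, 16 (41.0%) hold the cell cycle element, 28 (71.8%) the CCAAT box, 2 (5.1%) the E2F site and 1 (2.6%) the STAT dimer site. A gene was counted if any of its starts held a match, with 44 promoters for the 39 genes. The shares among 32851 promoters given above are per promoter, so they differ in unit from these shares per gene. A match describes the sequence and is not a measured binding site.

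**Figure D4:**
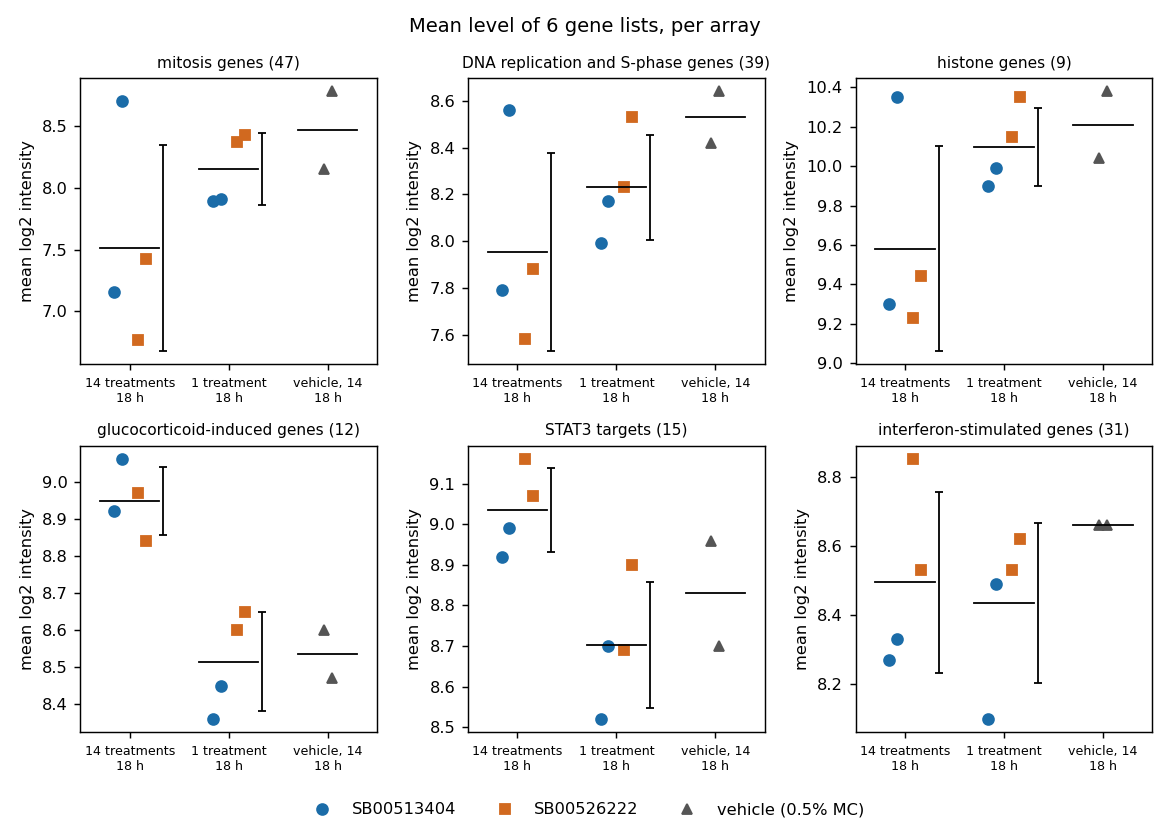
Mean log2 intensity of 6 gene lists in each array for 14 inhibitor treatments, 1 inhibitor treatment and 14 vehicle treatments, all at 18 h, with 47 mitosis, 39 S phase, 9 histone, 12 glucocorticoid-induced, 15 STAT3 target and 31 interferon-stimulated genes. Mitosis means spread from 6.77 to 8.7 after 14 treatments and from 7.89 to 8.43 after 1 treatment, while glucocorticoid-induced means do not overlap, at 8.84 to 9.06 after 14 treatments and 8.36 to 8.7 after 1 treatment.

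Of the JAK and STAT genes themselves, 9 were tested, of which 2 rose (22.2%, against 14.3% of all genes) and 1 fell (11.1%, against 3.62%), with a median of 0.22 that was 0.15 with the score as a covariate. Stat3, the factor of interleukin-6 and interleukin-10 signalling, rose by 0.24 (adjusted p = 0.0484) and Stat2, a factor of interferon signalling, by 0.41 (adjusted p = 0.0315), while Stat4, the factor of interleukin-12 signalling, fell by 0.47 (adjusted p = 0.0378; -0.04 with the score as a covariate). The kinases did not pass: Jak1 differed by 0.16 (adjusted p = 0.126), Jak2 by 0.02 (adjusted p = 0.925) and Tyk2 by 0.31 (adjusted p = 0.0635). Jak3 was not among the genes with a single-symbol probe set and was not analysed here. Of 19 receptors that signal through JAKs 6 rose (31.6%, against 14.3%) and 0 fell, with a median of 0.24 that was 0.06 with the score as a covariate. Among them were Il10ra, Il6ra and Ifngr1, which bind interleukin-10, interleukin-6 and interferon gamma and which rose by 0.42, 0.39 and 0.33 (adjusted p = 0.0348, 0.0298 and 0.037).

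Of 14 tested feedback inhibitors 4 rose (28.6%, against 14.3% of all genes) and 0 fell, with a median of 0.09 that lies near the 0.07 of all genes and was 0.01 with the score as a covariate. Socs3, which blocks gp130 receptors and JAKs, read 8.55, 8.93, 9.24 and 8.96 after 14 treatments, 8.01, 8.37, 8.20 and 8.75 after 1 treatment, and 8.82 and 8.27 after 14 vehicle treatments. Its 14 and 1 treatment arrays overlap, and the rise was 0.59 ± 0.15 (SE), 1.50-fold, with an adjusted p of 0.0315. With the score as a covariate the difference of Socs3 was -0.05. A second, dimmer probe set of Socs3 differed by 0.03. The phosphatase genes Ptpn6 and Ptpn11 rose by 0.37 and 0.34 (adjusted p = 0.0287 and 0.0335), and Socs5 rose by 0.34 (adjusted p = 0.0315). Socs1 differed by -0.03 and did not pass (adjusted p = 0.812), and Cish and Socs2 were too dim to be tested. Of 15 STAT3 targets 10 rose (66.7%, against 14.3% of all genes) and 0 fell, with a median of 0.39. They include Etv3, a repressor that acts downstream of interleukin-10 in macrophages, which rose by 0.81 (adjusted p = 0.0207), Sbno2, another mediator of interleukin-10, which rose by 0.52 (adjusted p = 0.0281), and Il4ra and Mcl1, which rose by 0.47 and 0.39 (adjusted p = 0.026 and 0.0287). Pim1, a kinase induced by STATs, rose by 0.76 (adjusted p = 0.0287; 0.01 with the score as a covariate). The median slope of the STAT3 targets on the array score was 0.14, against 0.04 over all genes. With the score as a covariate their median difference was 0.11, in a fit that called 0 of all genes.

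Of 31 interferon-stimulated genes tested, 1 rose (Stat2; 3.23%, against 14.3% of all genes) and 2 fell (6.45%, against 3.62%). Their median was 0.11, and -0.11 with the score as a covariate. The list mean was 8.27, 8.33, 8.85 and 8.53 after 14 treatments, 8.10, 8.49, 8.53 and 8.6 after 1 treatment, and 8.7 and 8.7 after 14 vehicle treatments. These ranges overlap. Samd9l, an antiviral restriction factor, fell by 0.68 (adjusted p = 0.0339; 0.03 with the score as a covariate) and Slfn1, a growth regulator of the schlafen family, by 0.64 (adjusted p = 0.0295). Rtp4 read 7.90, 8.20, 9.74 and 8.57 after 14 treatments, 7.28, 8.84, 8.82 and 8.99 after 1 treatment, and 9.41 and 9.42 after 14 vehicle treatments. Its ranges after 14 and 1 treatments overlap in part (difference 0.12 ± 0.33 SE, adjusted p = 0.808). Irf7, Oasl2, Ifit1 and Ifi27l2a differed by 0.45, 0.04, -0.29 and -0.42, and none passed (adjusted p = 0.15, 0.9, 0.15 and 0.202).

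Of 8 MHC class II presentation genes 1 rose (12.5%, near the 14.3% of all genes) and 0 fell (median -0.20), namely the lysosomal protease Ctss by 0.46 (adjusted p = 0.0298). H2-Aa averaged 10.15 ± 0.84 after 14 treatments and 10.33 ± 0.51 after 1 treatment, and Cd74 10.55 ± 0.73 and 11.17 ± 0.27 (SD, n = 4 each), neither of which passed (adjusted p = 0.73 and 0.136). Of 11 class I genes 1 rose (9.09%) and 0 fell, namely Tapbp, which loads peptides, by 0.69 (adjusted p = 0.0321; -0.13 with the score as a covariate). Of 14 inflammatory cytokines and chemokines 0 rose and 3 fell (21.4%, against 3.62% of all genes), with a median of -0.03. They were Il1a, the alarmin interleukin-1 alpha, which fell by 0.83 (adjusted p = 0.0271), and the chemokines Ccl2 and Ccl3, which fell by 0.39 and 0.46 (adjusted p = 0.0287 and 0.0455). The innate siderophore carrier Lcn2 fell by 1.31 (adjusted p = 0.0295) at a slope of -0.56 on the score.

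Of 12 tested glucocorticoid-induced genes 6 rose (against 14.3% of all genes) and 0 fell, with a median of 0.36. Their mean was 8.92, 9.06, 8.97 and 8.84 after 14 treatments, 8.36, 8.45, 8.60 and 8.7 after 1 treatment, and 8.60 and 8.47 after 14 vehicle treatments. Within J25 at 18 h, the 14 treatment arrays lie above both other sets. The list mean 18 h after 1 treatment in J23 was 8.78 with SB00513404 and 9.09 and 8.76 with SB00526222. Of these, 9.09 lies above all 4 J25 arrays of 14 treatments. The values of 8.78 and 8.76 lie below those 4 arrays and above the J25 arrays of 1 treatment. Klf9, a transcription factor induced by the glucocorticoid receptor, rose by 0.82 (adjusted p = 0.0263), Zbtb16, a zinc finger repressor, by 0.55 and Tsc22d3, which encodes GILZ, by 0.40 (adjusted p = 0.0287 each). Dusp1, a phosphatase that switches off MAP kinases and is also an immediate early gene, read 11.77, 11.61, 11.72 and 11.75 after 14 treatments, 9.89, 10.66, 10.35 and 11.22 after 1 treatment, and 10.88 and 10.18 after 14 vehicle treatments. It is near the same level in all 4 arrays of 14 treatments and rose by 1.18 ± 0.21 (SE), 2.3-fold, with an adjusted p of 0.026. Of 22 immediate early genes 8 rose (36.4%, against 14.3% of all genes) and 1 fell (4.55%, near the 3.62% of all genes), with a median of 0.18 that was 0.07 with the score as a covariate. With the score as a covariate, the median of the glucocorticoid list was 0.18, in a fit that called 0 of all genes. The clock genes Nr1d1 and Nr1d2 differed by 0.16 and -0.03 (adjusted p = 0.614 and 0.91), and of 15 clock genes 1 rose (6.67%, against 14.3%) and 0 fell.

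Scd2, a desaturase that makes monounsaturated fatty acids, read 8.0, 8.4, 8.0 and 8.2 after 14 treatments, 8.6, 9.0, 8.9 and 9.3 after 1 treatment, and 8.7 and 9.0 after 14 vehicle treatments. Its 14 treatment arrays lie below both other sets, and the fall was 0.79 ± 0.16 (SE), 1.73-fold lower, with an adjusted p of 0.0276. Its slope on the score was 0.08, and with the score as a covariate the difference was -1.39 (unadjusted p = 8.72e-05). In J23, 18 h after 1 treatment, Scd2 read 8.46, 8.19 and 8.59, near the level after 14 treatments in J25. Of these, 8.19 lies within the range of 14 treatments and 8.59 is level with the lowest J25 array of 1 treatment. Pparg, the nuclear receptor of fatty acid storage, also fell, by 0.79 (adjusted p = 0.0287), while the lipid droplet coat gene Plin2 and Apoe, the apolipoprotein of cholesterol efflux, rose by 0.71 and 1.06 (adjusted p = 0.0263 and 0.0287). Apoe has a slope of 0.43 on the score, and with the score as a covariate its difference was 0.22 (unadjusted p = 0.485). Of 18 LXR targets and lipid handling genes 3 rose (16.7%, near the 14.3% of all genes) and 3 fell (16.7%, against 3.62%), with a median of 0.11 that was -0.14 with the score as a covariate. Of 17 cholesterol synthesis genes 4 rose (24%, against 14.3%) and 0 fell (median 0.21, and 0.12 with the score), among them Insig1, which holds back the transcription factor SREBP, by 0.61 and the synthase Hmgcs1 by 0.42 (adjusted p = 0.0207 and 0.0287). Pdk4, which slows pyruvate oxidation, read 8.05, 8.07, 8.34 and 6.97 after 14 treatments, 6.6, 6.47, 7.17 and 6.27 after 1 treatment, and 5.85 and 5.79 after 14 vehicle treatments. The 8 inhibitor arrays exceed the 2 vehicle arrays of 14 treatments at 18 h, but the other 7 peritoneal vehicle arrays ranged from 6.64 to 9.1. SB00526222 replicate 2 of 14 treatments lies among those of 1 treatment, and the rise of Pdk4 was 1.23 ± 0.29 (SE), 2.35-fold, with an adjusted p of 0.0298.

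Of 27 lysosome and phagocytosis genes 8 rose (29.6%, against 14.3% of all genes) and 0 fell, with a median of 0.22 that was 0.01 with the score as a covariate. They include the scavenger receptor Stab1 at 1.09, the receptor Cd93 at 0.60 and the lysosomal lipase Lipa at 0.42 (adjusted p = 0.0287, 0.026 and 0.026). Of 17 complement and coagulation genes 6 rose (35.3%, against 14.3%) and 1 fell (5.88%, against 3.62%), with a median of 0.23 that was -0.11 with the score as a covariate. C1qa, a chain of the first complement component, read 11.86, 11.96, 12.41 and 12.15 after 14 treatments, 10.30, 11.09, 10.49 and 11.88 after 1 treatment, and 10.56 on replicate 2 of 14 vehicle treatments, while vehicle replicate 1 lies within the range of 14 inhibitor treatments. The rise of 1.16 ± 0.27 (SE), 2.2-fold, with an adjusted p of 0.0295, was -0.08 with the score as a covariate. C4a rose by 1.43 and C4b by 0.60 (adjusted p = 0.0209 and 0.0207), but these near-identical genes may share probes, and properdin, encoded by Cfp, rose by 1.06 (adjusted p = 0.0329; -0.18 with the score as a covariate). Of 20 Toll-like receptor genes 6 rose (30%, against 14.3%) and 2 fell (10%, against 3.62%), and Cd14, the coreceptor of lipopolysaccharide, rose by 0.66 (adjusted p = 0.0272).

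The other large differences belong to no list. Aldh2, the aldehyde dehydrogenase of mitochondria, rose by 1.46 and Fscn1, an actin bundling protein, by 1.30 (adjusted p = 0.0276 and 0.0207). Eif5a, a translation factor, rose by 1.27, P2rx1, an ATP-gated channel, by 1.19, Fzd1, a WNT receptor, by 1.19 and Rab5b, a GTPase of early endosomes, by 1.15 (adjusted p = 0.0398, 0.0207, 0.0207 and 0.0271). A second probe set of Eif5a differed by 0.53. Aldh2 and Eif5a have slopes of 0.88 and 0.89 on the array score, and with the score as a covariate their differences were 0.03 and -0.46. Plp2, a membrane protein, fell by 1.39 (adjusted p = 0.0207), with -1.24 and -1.19 on its other 2 probe sets and a difference of -1.36 with the score as a covariate (unadjusted p = 0.00725). Tmem154 fell by 1.04 and Hmgn5, a nucleosome binding protein, by 1.07 (adjusted p = 0.0207 and 0.0426). Srsy, of a multicopy family on the Y chromosome whose 11 probe sets may share targets, fell by 1.14 (adjusted p = 0.0298).

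The largest rise by value belonged to probe set 10445185, which the platform annotation gives to Baiap2l1, an adaptor of membrane protrusions. Its listed records include 1 that the annotation also lists for the probe set of Rn28s1, the 28S ribosomal RNA gene, so the gene it reads is not settled. It read 13.75, 14.07, 14.05 and 14.02 after 14 treatments, 11.60, 12.37, 11.85 and 13.82 after 1 treatment, and 13.89 and 11.68 after 14 vehicle treatments. The 3 arrays of 1 treatment and the vehicle array that score at or below -1 are the 4 low ones, and the slope of the probe set on the score was 1.02. The difference was 1.56 ± 0.37 (SE; adjusted p = 0.0298), and -0.16 with the score as a covariate. A second probe set with the shared record, 10536170, differed by 0.63, and that of Rn28s1 itself by 0.24, with means of 14.15 after 14 treatments and 13.91 after 1 treatment. The probe set of Baiap2l1 without that record averaged 6.00 after 14 treatments and 5.97 after 1 treatment, so the rise is not given to Baiap2l1. The part of ribosomal RNA in the other results was not tested.

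The change with the number of treatments was then compared between the compounds. For Ly6a2 it was -3.07 with SB00513404 and -3.18 with SB00526222, an interaction of 0.11 with a 95% interval of -1.13 to 1.36. For S1pr5 it was 1.20 and 1.03 (interval of the difference -0.22 to 0.55), and for Apoc1 0.93 and 1.29 (interval -0.96 to 0.24). For Kif11 it was -0.49 and -2.12, with an interval of -0.06 to 3.3. The interaction passed for 0 of 10870 genes (0%) in limma, with 251 at an unadjusted p under 0.05. The 95% interval reached a median of 0.45 to either side, so differences between compounds below that size are not resolved for a typical gene. Without SB00513404 replicate 1 of 14 treatments, 97 genes passed. Within single compounds, 1 gene passed for SB00513404 (0.00920%, S1pr5, with 2588 at an unadjusted p under 0.05) and 0 for SB00526222 (0%, with 1839).

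The arrays of 14 inhibitor treatments were last set against the 2 vehicle arrays of the same schedule, which score 0.00 and -1.92. Here 0 of 10870 genes passed in limma (0%), with 1067 at an unadjusted p under 0.05. Without vehicle replicate 1, 281 passed, and without vehicle replicate 2, 0 passed with 140 at an unadjusted p under 0.05. This comparison and that of 14 against 1 treatments share the 4 arrays of 14 treatments. Ly6a2, Apoc1, Timd4 and Bmpr1a lie on 1 side in all 4 of these arrays and on the other in both vehicle arrays, whereas S1pr5 and C1qa do not.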

How the data were processed

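The values were analysed for 8 arrays of peritoneal macrophages on Affymetrix Mouse Gene 1.0 ST arrays, and 25 further peritoneal arrays served as background. The deposited table holds linear intensity per probe set, made by the authors with RMA in Affymetrix Power Tools per the submitters' processing notes. Which arrays were normalized together, and with which versions and annotation, is not stated here by any label. RMA usually gives log2 values, and these were taken as linear because array medians lay between 123.2 and 134.3 and values between 5.29 and 19006 on the 8 arrays. Intensities from an array have no read depth, and the number of arrays limits the precision.

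From the deposited intensity, log2 was taken without a pseudocount. Of 24922 probe sets, 21425 carried 1 symbol in the platform annotation, 1399 several and 2098 none, and 21347 matched RefSeq GRCm38.p6 by gene identifier. The brightest probe set was kept for each of 19752 genes. A gene was tested if it exceeded the array median in at least 3 of the 33 peritoneal arrays (10870 genes). The model in limma 3.58.1 (R 4.3.3) held number of treatments and compound, and the interaction, single compounds and vehicle contrasts used group means. Moderated two-sided tests were adjusted by Benjamini-Hochberg over the 10870 genes at 0.05. The exact permutation test was two-sided.

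Groups came from the labels, and replicate numbers follow accession order. Nothing beyond title numbers says that samples came from separate animals, so p-values rest on a spread between arrays that may be technical. The named genes are the 12 largest rises and 12 largest falls that passed, up to 4 members of each list by moderated statistic (not all are described), and a set of JAK-STAT, macrophage, cell cycle and clock genes, with exceptions marked in the text. The members of the comparison, the gene lists and the rule were chosen with earlier results of these data known. The array score and the settings that use it were added after the data were seen.

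On simulated data with 10870 genes and the design of the 8 arrays, 100 of 100 genes changed by 1 on the log2 scale were recovered. Of 100 changed by 0.5, 71 were recovered, and 10 unchanged genes were called. The simulated noise was drawn independently for each gene and array and held no shared shift of the arrays. These figures therefore do not give the recovery or false calls of the real fit, where such a shift is present. Alternatives covered the arrays fitted, filter, normalization, pseudocount, eBayes settings, array weights, probe set summary and leaving out each array. Promoters came from RefSeq GRCm38.p6, and the starts of the windows are relative to the transcript start.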

Additional observations from a re-analysis of the deposited data

Results flagged for a closer look

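In 68 tests of the array score and 33 list means, each over the 4 arrays of 1 number of treatments, 3 list means had 1 array far from the other 3, and chance gives about 1 in 20 such tests. The mean of the LXR target and lipid handling genes after 14 treatments was 10 on SB00526222 replicate 1, against 9.85, 9.85 and 9.86 on the others. The mean of the small peritoneal macrophage and monocyte genes after 1 treatment was 8.7 on SB00513404 replicate 1, the other 3 arrays lying between 8.92 and 8.94. The mean of the cholesterol synthesis genes after 1 treatment was 7.56 on the same array, with the other 3 between 7.73 and 7.76. That array also has the lowest score of the 8 arrays, at -2.07, and whether the score bears on these values was not tested.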

How the results depend on the processing

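The count of genes passing between 14 and 1 treatments depends on which arrays enter. With each of the 8 arrays left out it ran from 2 to 2786, against 1953 with all 8. It fell below 10 in 3 of the 8 cases, to 3 (Ly6a2, S1pr5 and Apoc1) without SB00513404 replicate 1 of 1 treatment, to 5 (S1pr5, Ly6a2, Bmpr1a, Fscn1 and Gbgt1) without SB00526222 replicate 1 of 1 treatment, and to 2 (S1pr5 and Ly6a2) without SB00526222 replicate 1 of 14 treatments. It was 1134 and 589 without SB00513404 replicates 1 and 2 of 14 treatments, and the cause was not tested. It was 1 in a fit of all 14 J25 arrays, where the median adjusted p of the 1953 genes was 0.0577, and 909 without the compound covariate. With 33 arrays and an experiment term it was 1406, of which 1178 were among the 1953. With the array score, added after the data were seen, it was 0 in 8 arrays and 0 in 33 arrays (519 and 721 at an unadjusted p under 0.05), and 1 without the 3 low arrays of 1 treatment, which leaves 2 residual degrees of freedom. Quantile normalization called 1573 genes and moved the share of rises among the calls to 57.3%, against 79.8%, with an all-gene median of 0.00 against 0.07. The interaction count ran from 0 to 97 with 1 array left out, that of SB00513404 alone from 0 to 2, that of SB00526222 alone from 0 to 2, and that against vehicle from 0 to 281. For SB00513404 alone the count was 0 with all 14 arrays, with quantile normalization and with the score, against 1. For SB00526222 alone it was 1 with 33 arrays and 2 with no filter, against 0. No paired analysis was possible because replicate numbers were given in accession order and pair no samples.

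For the 91 genes named, 73 of them called, 1908 values under alternatives kept direction and side of the threshold in 1244, lost the call in 611, gained it in 11 and reversed in 42. No called gene reversed with an array left out or under another planned setting. With the score as a covariate in 8 arrays, reversals were C1qa -0.08, Cfp -0.18, Baiap2l1 -0.16, Eif5a -0.46, Socs3 -0.05, Tyk2 -0.05, Rtp4 -0.74, Oasl2 -0.39, Irf7 -0.38, Gata6 -0.01, Icam2 -0.04, Tapbp -0.13, Socs1 0.03, Ifit1 0.03, Samd9l 0.03 and Nr1d2 0.28. In 33 arrays with the score they were Pim1 -0.07, Icam2 -0.12, Tapbp 0.00, Stat4 0.03 and Nr1d1 -0.02. Without the 3 low arrays they were Ifit1 0.00, H2-Aa 0.39 and Nr1d2 0.47. Quantile normalization gave Jak2 -0.10 and Oasl2 -0.07, and array weights gave Rtp4 -0.05 and Oasl2 -0.05. With 1 array left out, values of both signs occurred for Jak2 (-0.07 to 0.14), Socs1 (-0.09 to 0.04), Rtp4 (-0.17 to 0.45), Oasl2 (-0.16 to 0.26), H2-Aa (-0.42 to 0.19), Nr1d1 (-0.05 to 0.35) and Nr1d2 (-0.20 to 0.10), none of which passed with all 8 arrays. Genes near the array background, such as Ly6a2 after 14 treatments, have the least certain folds.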
